A study of Mus musculus with 12 samples.

Results

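The genes described here are 10 genes of the Notch pathway, taken by name from the table of raw counts: the receptors *Notch1*, *Notch2* and *Notch3*, the ligands *Jag1*, *Jag2* and *Dll1*, the nuclear factor *Rbpj*, and the target genes *Hes1*, *Hey1* and *Heyl*. They are 10 of the 54532 genes in the table, and all 10 passed the filter on low counts, which kept 24642 genes. RNA was sequenced from the whole kidneys of 12 C57BL/6 mice (C57BL/6J in the study's methods), 18 days old, in 4 groups of 3 mice. Every mouse, controls included, carried the hypomorphic RC allele of *Pkd1* and a floxed *Pkd1* allele. Noncystic mice (*Pkd1* RC/+) had no Cre. Cystic mice (*Pkd1* RC/-) also carried Ksp-Cre, which the *Cdh16* promoter drives in tubule epithelium and which removes the floxed allele there, while vessels, interstitium and glomeruli keep it. In each state 3 mice had normal *Pkd2* (*Pkd2*+/+) and 3 were *Pkd2*Δ17/Δ17, an allele made with CRISPR/Cas9 whose 3′-UTR lacks its miR-17 motif.

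Notch receptors sit in the cell membrane and are bound by Jagged and Delta-like ligands on a neighbouring cell. Binding lets ADAM proteases and then γ-secretase cut the receptor, and the freed intracellular part enters the nucleus, joins RBPJ and Mastermind-like coactivators, and turns on genes of the Hes and Hey families, which are transcriptional repressors. In the kidney the pathway is known for its part in setting up the proximal segments of the nephron and in vessels. What was measured here is the mRNA of these genes, not receptor cleavage or protein.

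The deleted motif is a match to the seed of miR-17, so the same match was looked for in the members' own 3′-UTRs. The sequences are from RefSeq (the miRNA) and from the GENCODE M21 transcripts (the sites), both on GRCm38, with the seed or its match in capitals. The mature miRNA lies at chr14:115043684-115043706 on the forward strand. The site in *Pkd2* is at chr5:104503810-104503838 on the forward strand, in the 3′-UTR, and is shown because it is the edited motif. The site in *Rbpj* is at chr5:53655060-53655088 on the forward strand, also in the 3′-UTR, and is shown because *Rbpj* was the only member with a match.
mmu-miR-17-5p: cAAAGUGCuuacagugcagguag
*Pkd2* site: tataattttctGCACTTTaatttatttta
*Rbpj* site: tttccatccctGCACTTTggttattcctt
The letters GCACTTT, on the transcript strand, were thus found in the longest annotated 3′-UTR of 1 of the 10 members, and in 11.8% of 21042 genes. The 3′-UTRs searched ran from 368 bases in *Hes1* to 3742 bases in *Rbpj*.

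RefSeq promoters (250 bases before to 50 after the start) matched 7 of the 10 members, with 9 promoters in all, and they were searched on both strands for TGGGAA, the core of the sequence that RBPJ binds. It was present in 2 of these 9 promoters, both of *Rbpj* itself, and in 25.6% of all 32851 promoters. In the *Rbpj* promoter at chr5:53590096-53590395 (GRCm38, forward strand) it lay 149 bases before the start on the forward strand and, as TTCCCA, 65 bases before it on the reverse strand, shown here with the motif in capitals. The second match also lies in the other *Rbpj* promoter, chr5:53590236-53590535, since the windows overlap.
*Rbpj* forward match: aatgaaaaaggcTGGGAAcccgcggcgagc
*Rbpj* reverse match: gacgctcgcattTTCCCAggacccctcctc
The promoters of *Hes1*, *Hey1* and *Heyl* were not analysed here.

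Each library held 18800307 to 24453033 counted reads, and mice of 1 group differed by more than sampling noise (chi-square per degree of freedom 8.88 to 24.3 over genes). TMM scaling factors were 0.933 to 0.972 in noncystic and 1.04 to 1.08 in cystic libraries, so the scaling itself moved with the disease. Of all genes, 4170 rose and 3495 fell between cystic and noncystic *Pkd2*+/+ kidneys with these factors, and 6251 rose and 2468 fell with library totals alone, so small changes depended on the scaling. The edited gene *Pkd2* was at 217, 194 and 219 CPM (counts scaled to a common library size with TMM) in noncystic *Pkd2*+/+ and at 277, 286 and 270 CPM in noncystic *Pkd2*Δ17/Δ17 mice, without overlap (log2 fold change 0.40; edgeR, adjusted p = 0.771). It was at 232, 233 and 213 CPM in cystic *Pkd2*+/+ and at 337, 336 and 307 CPM in cystic *Pkd2*Δ17/Δ17 kidneys, with a log2 fold change of 0.53 ± 0.08 (SE; quasi-likelihood test of edgeR, adjusted by Benjamini-Hochberg, adjusted p = 0.00250). *Pkd1* and *Cdh16* passed the test in none of the 4 comparisons, and counts over the whole *Pkd1* gene do not separate its floxed part. Markers of kidney tubule were abundant, with the 6 proximal tubule genes summing to at least 2137 CPM in every mouse.

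**Figure D1:**
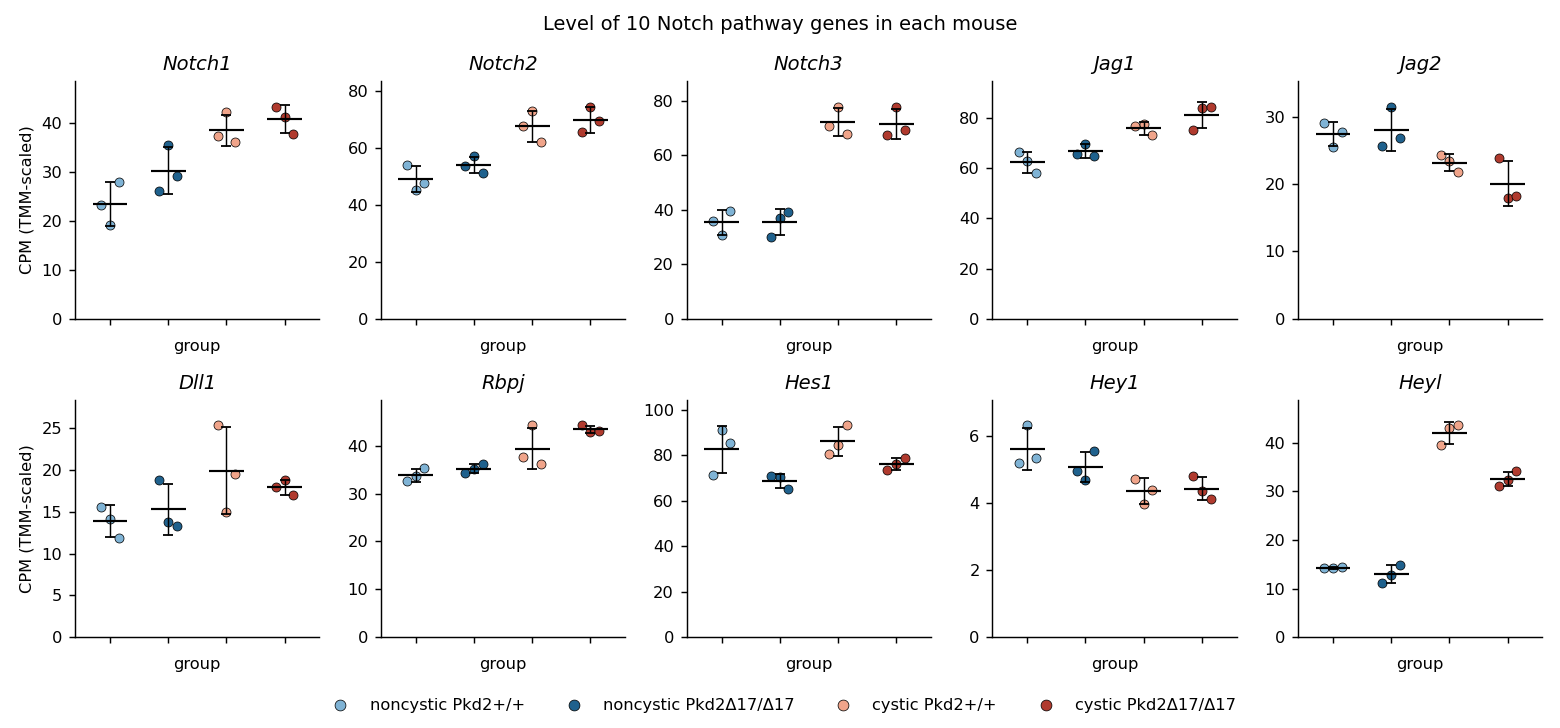
Level of each of the 10 genes (vertical axes, TMM-scaled CPM, from 0) in each of the 12 mice by group (horizontal axes); points are mice, the wide line is the group mean and the bar its SD (n = 3). *Notch3* and *Heyl* separate the cystic from the noncystic mice without overlap, as do *Notch1*, *Notch2*, *Jag1* and, downward, *Jag2* by smaller margins. *Hes1* and *Hey1* stay within a narrower range.

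Measured per kilobase of exon, the scale on which genes can be compared with each other, *Hes1* was by far the most abundant member. In noncystic *Pkd2*+/+ kidneys its level was 40.6 ± 5.03 CPM per kilobase (SD, n = 3), followed by *Jag1* at 10.7 ± 0.73 CPM per kilobase. The ranges of *Notch2* (4.54), *Notch3* (4.37) and *Jag2* (3.94 CPM per kilobase) overlapped with each neighbour, as did those of *Jag2* with *Dll1* (3.29) and of *Dll1* with *Heyl*, so their order was not resolved. *Heyl* stood at 2.79 ± 0.03 CPM per kilobase, and *Hey1* (1.72) and *Notch1* (1.65) were the lowest and overlapped. In cystic *Pkd2*+/+ kidneys *Notch3* stood in the third place at 8.91 ± 0.63 CPM per kilobase and *Heyl* in the fourth at 8.22 ± 0.44, with overlapping ranges. The place of *Rbpj* depends on the length used: it was at 2.66 CPM per kilobase with all its exons (12750 bases) and at 6.17 with its longest transcript (5485 bases) in noncystic *Pkd2*+/+ kidneys.

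Cystic and noncystic kidneys with *Pkd2*+/+ were compared to see how the pathway stood in the disease. Of the 10 genes, 6 rose (*Notch1*, *Notch2*, *Notch3*, *Jag1*, *Dll1* and *Heyl*) and 0 fell, against 16.9% of all genes tested that rose and 14.2% that fell. Many of all genes tested had few reads. Of the 14769 genes with at least 10 counts in every mouse, which include all members, 3805 rose and 3534 fell. The members were chosen with earlier results of these data known. The 2 groups did not overlap for 8 of the 10 genes, against 41.7% of all genes. The members' median log2 fold change was 0.37, beside 0.02 over all genes tested. Because whole kidneys were used, a changed number of cells of a type and a changed amount of RNA per cell cannot be told apart in these values. In *Pkd2*Δ17/Δ17 kidneys the same comparison called 6 members higher and 1 lower (*Jag2*), where 12.8% of all genes rose and 10.2% fell. Of the 14769 genes with at least 10 counts in every mouse, 3062 rose and 2776 fell. There too 8 of 10 genes showed no overlap, against 37.9% of all genes, and the members' median was 0.29. The comparisons in the 2 genotypes share no mice.

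All 3 receptors rose in cystic kidneys, and *Notch3* rose most. *Notch3* (ENSMUSG00000038146, chr17:32120820-32166852, reverse strand), a receptor best known from the mural cells of vessels, was at 35.7, 30.6 and 39.7 CPM in the noncystic *Pkd2*+/+ mice and at 70.6, 77.7 and 67.9 CPM in the cystic ones. In *Pkd2*Δ17/Δ17 mice it was at 30.1, 36.8 and 39.3 CPM without cysts and at 67.3, 77.8 and 69.3 CPM with them. Every cystic mouse was thus far above every noncystic mouse, and the 2 *Pkd2* genotypes lay on top of each other. The log2 fold change was 1.03 ± 0.11 (SE; edgeR, adjusted p = 2.32e-06) with *Pkd2*+/+ and 1.01 ± 0.11 (adjusted p = 6.90e-06) with *Pkd2*Δ17/Δ17, or a 2.04-fold and a 2.02-fold rise.

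*Notch1* (ENSMUSG00000026923, chr2:26457903-26516663, reverse strand), the founding member of the receptor family, was at 23.3, 19.1 and 28.03 CPM in noncystic and 37.2, 42.1 and 36.2 CPM in cystic *Pkd2*+/+ mice. In *Pkd2*Δ17/Δ17 mice it was at 26.1, 35.5 and 29.2 CPM and at 43.4, 41.2 and 37.7 CPM. The groups did not overlap in either genotype, but the noncystic *Pkd2*Δ17/Δ17 mice reached closer to the cystic level. The log2 fold change was 0.71 ± 0.13 (SE; edgeR, adjusted p = 0.000498) with *Pkd2*+/+ and 0.43 ± 0.13 (adjusted p = 0.0253) with *Pkd2*Δ17/Δ17. The second call was lost when mouse 22, 24, 28 or 29 was left out (log2 fold change 0.33 to 0.42, adjusted p 0.0680 to 0.128).

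*Notch2* (ENSMUSG00000027878, chr3:98013527-98150361, forward strand), the receptor that acts in nephron formation, was at 54.0, 45.2 and 47.7 CPM in noncystic and 67.7, 73.1 and 62.1 CPM in cystic *Pkd2*+/+ mice. All cystic mice were higher, and the log2 fold change was 0.47 ± 0.09 (SE; edgeR, adjusted p = 0.000583). With *Pkd2*Δ17/Δ17 the groups again did not overlap, at 51.4 to 57.2 CPM against 65.5 to 74.6 CPM, and the log2 fold change was 0.37 ± 0.09 (adjusted p = 0.00523). Exons of all 3 receptors share bases with other annotated genes. *Notch1* shares 1068 bases with *0610009E02Rik* and 414 with *Gm13568*, and *Notch3* shares 488 with *Gm17276*, all on the other strand, and which strand was counted is not given in the sources used here. *Notch2* shares 541 bases with *Gm42820* on the same strand, which strand cannot separate. A part of the reads of each could thus belong to the other gene.

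Among the ligands, *Jag1* rose and *Jag2* moved the other way. *Jag1* (ENSMUSG00000027276, chr2:137081456-137116644, reverse strand), the most abundant ligand here, was at 66.5, 62.9 and 58.0 CPM in noncystic and 77.1, 77.8 and 73.1 CPM in cystic *Pkd2*+/+ mice. Its *Pkd2*Δ17/Δ17 values were 65.9, 69.9 and 64.9 CPM and at 75.3, 84.1 and 84.7 CPM. The cystic mice were above all noncystic mice of their genotype, and the rise was small. It was 0.28 ± 0.08 on the log2 scale in both genotypes (edgeR, adjusted p = 0.00785 with *Pkd2*+/+ and 0.0110 with *Pkd2*Δ17/Δ17). Leaving out mouse 21 ended the first call (0.22, adjusted p = 0.0615), and leaving out mouse 24 or 30 ended the second (adjusted p = 0.0515 and 0.0540).

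*Jag2* (ENSMUSG00000002799, chr12:112907819-112929776, reverse strand), a second Jagged ligand, was at 29.1, 25.5 and 27.8 CPM in noncystic and at 24.3, 23.4 and 21.8 CPM in cystic *Pkd2*+/+ mice. The *Pkd2*Δ17/Δ17 mice were at 25.7, 31.5 and 26.9 CPM and at 23.9, 18.0 and 18.3 CPM. The cystic mice were below the noncystic ones in both genotypes, and the difference passed the test in the second. The log2 fold change was -0.24 ± 0.12 (SE; edgeR, adjusted p = 0.137) and -0.48 ± 0.12 (adjusted p = 0.00670). With library totals in place of TMM factors the second call was lost (-0.33, adjusted p = 0.0564), and with *Xist* as a covariate, since the labels give no sex, the first was called (-0.32, adjusted p = 0.0332).

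*Dll1* (ENSMUSG00000014773, chr17:15367354-15376872, reverse strand), a Delta-like ligand, was at 15.6, 14.2 and 11.9 CPM in noncystic and at 25.4, 14.9 and 19.5 CPM in cystic *Pkd2*+/+ mice. The groups overlapped, since the lowest cystic mouse was under the highest noncystic one. Its log2 fold change of 0.52 ± 0.18 (SE; edgeR, adjusted p = 0.0316) was no longer called without mouse 20, 21, 25 or 27, and without mouse 25, the highest, it was 0.31 (adjusted p = 0.195). It was also not called in a fit on the compared groups only (adjusted p = 0.0530). With *Pkd2*Δ17/Δ17 the log2 fold change was 0.23 ± 0.18 (adjusted p = 0.417). *Dll1* shares 867 exon bases with *A930024N18Rik* on the other strand.

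*Rbpj* (ENSMUSG00000039191, chr5:53466152-53657362, forward strand), the DNA-binding partner of the cleaved receptors, was at 32.6, 33.8 and 35.2 CPM in noncystic and 37.7, 44.3 and 36.2 CPM in cystic *Pkd2*+/+ mice. The *Pkd2*Δ17/Δ17 mice were at 34.3, 35.0 and 36.3 CPM and at 44.2, 42.8 and 43.0 CPM. Cystic and noncystic mice of the same *Pkd2* genotype did not overlap, but only the second difference passed the test. The log2 fold change was 0.22 ± 0.09 (SE; edgeR, adjusted p = 0.0672) with *Pkd2*+/+ and 0.30 ± 0.09 (adjusted p = 0.0165) with *Pkd2*Δ17/Δ17. Leaving out mouse 22, 23 or 28 ended the second call (adjusted p 0.0505 to 0.0683), and with library totals the first was called (0.38, adjusted p = 0.00217).

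The 3 target genes did not move together. *Heyl* (ENSMUSG00000032744, chr4:123233556-123249875, forward strand), a Hey-family repressor, was at 14.2, 14.1 and 14.4 CPM in noncystic *Pkd2*+/+ mice and at 39.4, 43.0 and 43.6 CPM in cystic ones. With *Pkd2*Δ17/Δ17 it was at 11.2, 12.7 and 14.9 CPM without cysts and at 31.1, 32.2 and 34.1 CPM with them. Both cystic groups were clear of both noncystic groups, and they did not overlap with each other. The log2 fold change was 1.56 ± 0.10 (SE; edgeR, adjusted p = 2.58e-08), or 2.94-fold, with *Pkd2*+/+ and 1.33 ± 0.10 (adjusted p = 3.94e-07), or 2.51-fold, with *Pkd2*Δ17/Δ17. It had the largest fold change of the 10 genes in both comparisons, and no gene overlaps its exons.

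*Hes1* (ENSMUSG00000022528, chr16:30064384-30067796, forward strand), the target most often used as a readout of the pathway, was at 71.3, 91.3 and 85.4 CPM in noncystic and 80.7, 84.6 and 93.4 CPM in cystic *Pkd2*+/+ mice. These groups overlapped almost fully, with a log2 fold change of 0.06 (95% interval -0.13 to 0.25; edgeR, adjusted p = 0.664). With *Pkd2*Δ17/Δ17 it was at 65.2 to 70.7 CPM and 73.6 to 78.8 CPM without overlap, and the log2 fold change was 0.15 (-0.04 to 0.33; adjusted p = 0.280), while library totals gave 0.30 (adjusted p = 0.0163). *Hey1* (ENSMUSG00000040289, chr3:8663359-8667256, reverse strand), another Hey-family repressor, was low, at 81 to 122 reads per mouse. It was at 5.19 to 6.33 CPM in noncystic and 3.96 to 4.72 CPM in cystic *Pkd2*+/+ mice, with a log2 fold change of -0.36 (-0.72 to -0.01; adjusted p = 0.121). With *Pkd2*Δ17/Δ17 the log2 fold change of *Hey1* was -0.19 (-0.56 to 0.17; adjusted p = 0.485).

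**Figure D2:**
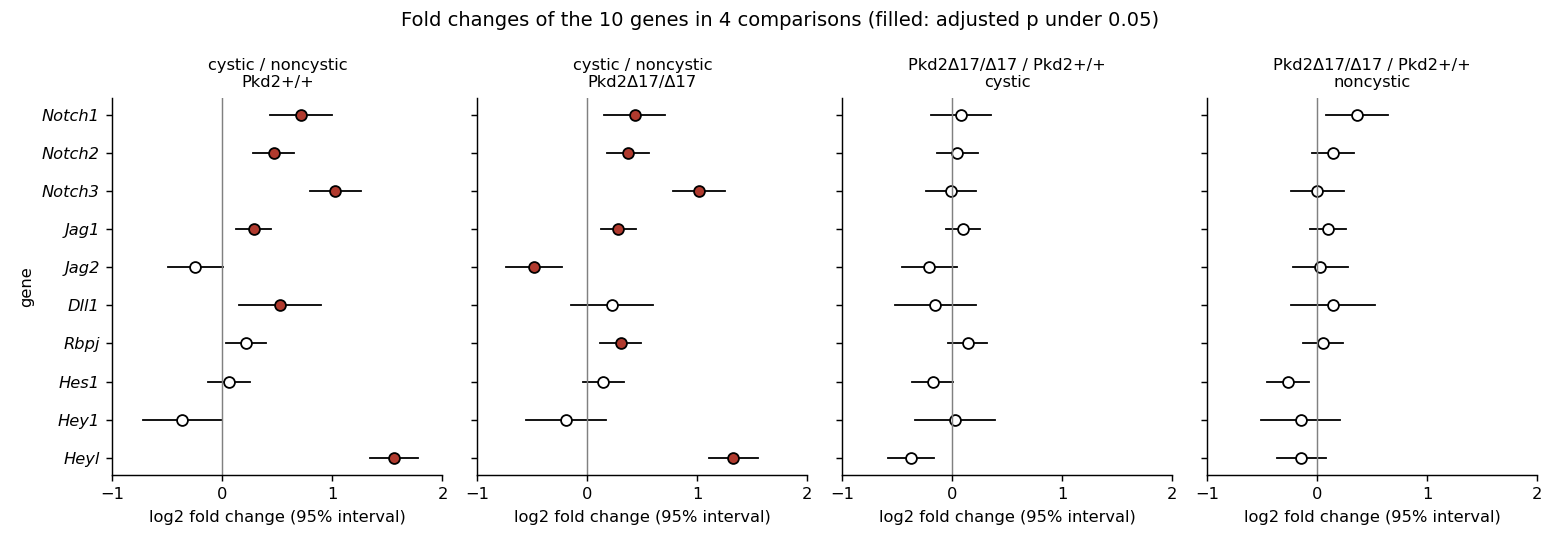
Log2 fold change (horizontal axes) of the 10 genes in 4 comparisons, as points with 95% intervals from edgeR; filled points passed the adjusted p threshold of 0.05. The 3 receptors, *Jag1* and *Heyl* are filled in both comparisons of cystic with noncystic kidneys, and no point is filled in the 2 comparisons of *Pkd2* genotypes.

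The make-up of the receptor mRNA changed as well as its amount. Each receptor's share of the summed CPM per kilobase of *Notch1* to *Notch4* was computed per mouse and compared between cystic and noncystic mice within *Pkd2* genotype, by a two-sided exact permutation test (400 arrangements, smallest p 0.005), adjusted over the 9 shares of receptors and ligands. *Notch3* held 24.3, 24.7 and 25.96% of the receptor sum in noncystic and 39.1, 39.7 and 38.1% in cystic *Pkd2*+/+ mice. Its share in *Pkd2*Δ17/Δ17 mice was 21.3, 23.7 and 26.9% and 36.6, 39.4 and 38.1%. No noncystic mouse reached a cystic one, and the mean difference of 14.0 percentage points had an adjusted p of 0.009 (exact permutation test). *Notch4*, a receptor mainly of endothelium, fell by 16.5 percentage points in the same sum (adjusted p = 0.009, exact permutation test). It went from 35.3 to 40.2% in the 6 noncystic mice to 19.9 to 24.2% in the 6 cystic mice. Shares of the same sum are tied, since a gain of some must be a loss of others. The shares of the receptors, and those of the ligands below, are thus not independent results.

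*Notch1* gained 1.58 percentage points of the receptor sum (adjusted p = 0.045, exact permutation test), with overlapping mice, and this call was lost when any of 10 of the 12 mice was left out. The share of *Notch2* was 26.8% in noncystic and 27.7% in cystic mice (adjusted p = 0.37, exact permutation test). The summed level itself was 17.5 ± 1.91 CPM per kilobase (SD, n = 3) in noncystic and 22.8 ± 1.16 in cystic *Pkd2*+/+ mice, and 18.2 ± 0.86 and 23.2 ± 1.07 with *Pkd2*Δ17/Δ17.

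Of the ligand sum (*Jag1*, *Jag2*, *Dll1*, *Dll3* and *Dll4*), *Jag1* held 42.6 to 45.2% in the 6 noncystic and 47.6 to 54.1% in the 6 cystic mice, without overlap. Its mean gain was 6.59 percentage points (adjusted p = 0.009, exact permutation test). *Jag2* fell by 4.18 percentage points, from 14.4 to 17.4% to 9.35 to 13.5%, also without overlap (adjusted p = 0.009, exact permutation test). The share of *Dll4*, a ligand of endothelium, fell by 5.41 percentage points with overlapping mice (adjusted p = 0.009, exact permutation test). The share of *Dll1* was 13.7% in noncystic and 16.8% in cystic mice (adjusted p = 0.0771, exact permutation test), and *Dll3* was near 0 throughout.

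**Figure D3:**
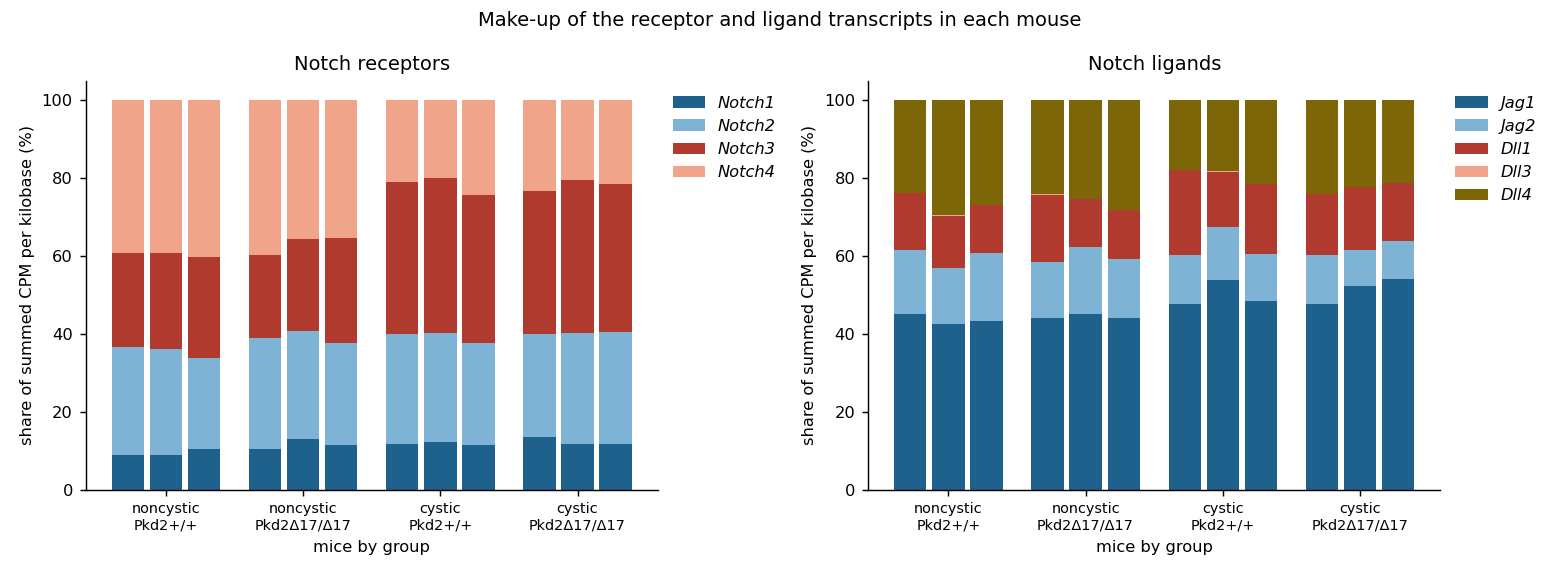
Share (vertical axes, % of the summed CPM per kilobase) of each Notch receptor (left) and ligand (right) in each of the 12 mice, 1 stacked bar per mouse, 3 bars per group. The *Notch3* part is wider and the *Notch4* part narrower in all 6 cystic mice, and the *Jag1* part is wider in all 6 cystic mice.

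The *Pkd2* motif deletion was then compared within cystic kidneys, to see whether the disease levels of these genes differed with it. Of the 10 members, 0 passed the test in edgeR, where 2.23% of all genes did. With an unadjusted p under 0.05 in the same test, 1 member (*Heyl*) was counted, against 14.3% of all genes, and DESeq2 called 1 (*Heyl*), against 4.58% of all genes. The cystic groups did not overlap for 2 members, *Heyl* and *Hes1*, beside 19% of all genes. This comparison shares its cystic mice with the comparisons above, so the values stand side by side only.

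*Heyl* was lower in cystic *Pkd2*Δ17/Δ17 than in cystic *Pkd2*+/+ kidneys by its mouse values above, with a log2 fold change of -0.37 (95% interval -0.58 to -0.16; edgeR, adjusted p = 0.0610). It was called with DESeq2 (adjusted p = 0.0122), without a filter (0.0319), with at least 10 counts in every mouse (0.0448), with *Xist* as a covariate (0.0356) and without mouse 25 (0.0476), so the result stood near the threshold. *Hes1* was at 80.7, 84.6 and 93.4 CPM in cystic *Pkd2*+/+ and at 73.6, 76.3 and 78.8 CPM in cystic *Pkd2*Δ17/Δ17 mice, with a log2 fold change of -0.18 (-0.36 to 0.01; adjusted p = 0.382). The 3 receptors had log2 fold changes of 0.08 (-0.19 to 0.36) for *Notch1*, 0.05 (-0.14 to 0.23) for *Notch2* and -0.01 (-0.24 to 0.22) for *Notch3*. *Rbpj*, which holds the miR-17 seed match shown above, had 0.14 (-0.04 to 0.32; adjusted p = 0.503). The edited motif is that of *Pkd2*, so this comparison does not test the *Rbpj* site.

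In noncystic kidneys 0 of 10 members passed the test between the *Pkd2* genotypes in edgeR and 0 in DESeq2, where 0.00406% of all genes did in edgeR and 0.0122% in DESeq2. An unadjusted p under 0.05 was counted for 2 members, *Notch1* and *Hes1*, against 6.31% of all genes. *Notch1* had a log2 fold change of 0.36 (95% interval 0.08 to 0.65; adjusted p = 0.771) with overlapping mice. *Hes1* was at 71.3 to 91.3 CPM with *Pkd2*+/+ and at 65.2 to 70.7 CPM with *Pkd2*Δ17/Δ17, without overlap, as for 10.8% of all genes, and its log2 fold change was -0.26 (-0.45 to -0.07; adjusted p = 0.771). *Hes1* was thus the member whose *Pkd2*Δ17/Δ17 mice lay below the *Pkd2*+/+ mice in both states, and neither difference passed the test.

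Whether the difference between cystic and noncystic kidneys depended on the *Pkd2* genotype was tested as an interaction. In edgeR 0 of 10 members passed it, and 0.0122% of all genes did. An unadjusted p under 0.05 was counted for 0 members and 8.33% of all genes, and DESeq2 called 0 members and 0.544% of all genes. The estimates ran from -0.30 (95% interval -0.83 to 0.23) for *Dll1* to 0.17 (-0.34 to 0.68) for *Hey1* on the log2 scale. For *Heyl* the estimate was -0.23 (-0.54 to 0.08) and for *Notch3* -0.01 (-0.34 to 0.31). Both intervals, from 3 mice a group, were wide and included 0.

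The rest of the pathway was described with a list of 59 other genes, all of which passed the filter. In *Pkd2*+/+ kidneys 16 rose and 8 fell with cystic disease, and with *Pkd2*Δ17/Δ17 10 rose and 9 fell. Over all genes, 16.9% rose and 14.2% fell in the first comparison and 12.8% and 10.2% in the second, and the counts of the sublists below stand against the same shares. The medians of the list were 0.05 and 0.12 on the log2 scale. Among 6 other receptors and ligands 0 rose and 3 fell in *Pkd2*+/+ kidneys: *Notch4*, *Dll4* and *Dlk1*, a non-canonical ligand. *Notch4* was at 57.4, 48.2 and 61.2 CPM in noncystic and at 37.9, 38.9 and 43.0 CPM in cystic mice (log2 fold change -0.48 ± 0.09, SE; edgeR, adjusted p = 0.000679), without overlap, and had -0.42 (adjusted p = 0.00325) with *Pkd2*Δ17/Δ17. *Dll4* had -0.38 (adjusted p = 0.0163) and -0.13 (adjusted p = 0.477). With library totals the first value of *Dll4* was -0.22 (adjusted p = 0.157) and the second turned to 0.02, and without mouse 20 or 26 the first was -0.30 or -0.31 (adjusted p = 0.0719 and 0.0707). *Dlk1*, with as few as 9 reads in a mouse, had -2.12 (adjusted p = 0.00230) and -1.39 (adjusted p = 0.0370), and the second call was lost without mouse 22, 23, 24, 29 or 30 and with library totals (-1.24).

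Of 5 glycosyltransferases of the receptors, 2 rose and 1 fell in *Pkd2*+/+ kidneys. *Pofut1*, which puts O-fucose on the receptors, had 0.36 (edgeR, adjusted p = 0.00115), *Poglut1*, which adds O-glucose, 0.32 (adjusted p = 0.00868), and *Rfng*, a fringe enzyme, -0.41 (adjusted p = 0.00941). Of 9 protease genes 3 rose and 3 fell, among them the γ-secretase subunits *Ncstn* (0.27, adjusted p = 0.00839), *Aph1a* (-0.24, adjusted p = 0.0164) and *Aph1c* (-0.69, adjusted p = 0.000220). With library totals *Rfng* had -0.25 (adjusted p = 0.103) and *Aph1a* -0.08 (adjusted p = 0.434), so these 2 calls depended on the scaling. Without mouse 20 the calls of *Poglut1* (0.27, adjusted p = 0.0536) and *Ncstn* (0.22, adjusted p = 0.0665) were lost, and without mouse 21 or 26 that of *Aph1a* (adjusted p = 0.0579 and 0.0537).

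Genes of ubiquitination and endocytosis held the strongest change of the list. Of 12 such genes 3 rose and 1 fell in *Pkd2*+/+ kidneys. *Neurl1a*, an E3 ubiquitin ligase that acts on Notch ligands, was at 4.10, 4.79 and 3.76 CPM in noncystic and at 28.7, 29.2 and 29.8 CPM in cystic *Pkd2*+/+ mice. In *Pkd2*Δ17/Δ17 mice it was at 4.80, 3.76 and 3.85 CPM and at 13.8, 14.8 and 19.1 CPM. The noncystic groups were alike in range, and the cystic *Pkd2*Δ17/Δ17 mice stood between them and the cystic *Pkd2*+/+ mice without overlap. Its log2 fold change with cystic disease was 2.79 ± 0.15 (SE; edgeR, adjusted p = 4.79e-09) and 1.94 ± 0.15 (adjusted p = 4.21e-07). *Neurl1a* shares 690 exon bases with *AC132288.2* on the same strand, so a part of its reads could belong to that gene.

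*Neurl1a* was also the 1 gene of the 59 called between the cystic groups, with a log2 fold change of -0.88 ± 0.14 (SE; edgeR, adjusted p = 0.00385). Its interaction estimate was -0.85 (95% interval -1.30 to -0.40; adjusted p = 0.234 in edgeR, 0.0493 in DESeq2 and 0.0175 in edgeR without a filter). *Numbl*, a relative of the Notch inhibitor Numb, had 0.98 and 0.81 with cystic disease (adjusted p = 1.56e-06 and 2.36e-05), and *Dtx4*, a Deltex ubiquitin ligase, 0.92 and 0.75 (adjusted p = 1.21e-05 and 0.000188). Between the cystic groups *Dtx4* had -0.43 (-0.67 to -0.18; adjusted p = 0.0669), and this was called with DESeq2 (adjusted p = 0.0205), without a filter, with *Xist* as a covariate, and without mouse 25 or 30.

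Of 18 nuclear coactivators and corepressors 6 rose and 0 fell in *Pkd2*+/+ kidneys, and with *Pkd2*Δ17/Δ17 4 rose and 0 fell. *Hdac1*, a histone deacetylase, had 0.44 (edgeR, adjusted p = 0.000172), and *Tle3*, a Groucho-family corepressor, 0.33 (adjusted p = 0.00295). Of 9 other target genes 2 rose and 0 fell: *Sox9*, a transcription factor of repairing tubule, had 0.88 (adjusted p = 0.0356) and *Ccnd1*, cyclin D1, had 0.34 (adjusted p = 0.0490). Both calls were lost when single mice were left out, *Sox9* without mouse 19, 20, 26 or 27 and *Ccnd1* without mouse 20, 21, 26 or 27, where without mouse 20 it was at 0.19 (adjusted p = 0.295). *Hey2*, another Hey-family repressor, had -0.76 (adjusted p = 0.0565) with *Pkd2*+/+ and -1.01 (adjusted p = 0.0176) with *Pkd2*Δ17/Δ17, the opposite sign to *Heyl*. DESeq2 also called the first (adjusted p = 0.0302), and leaving out mouse 24 or 29 ended the second (adjusted p = 0.0680 and 0.0884).

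**Figure D4:**
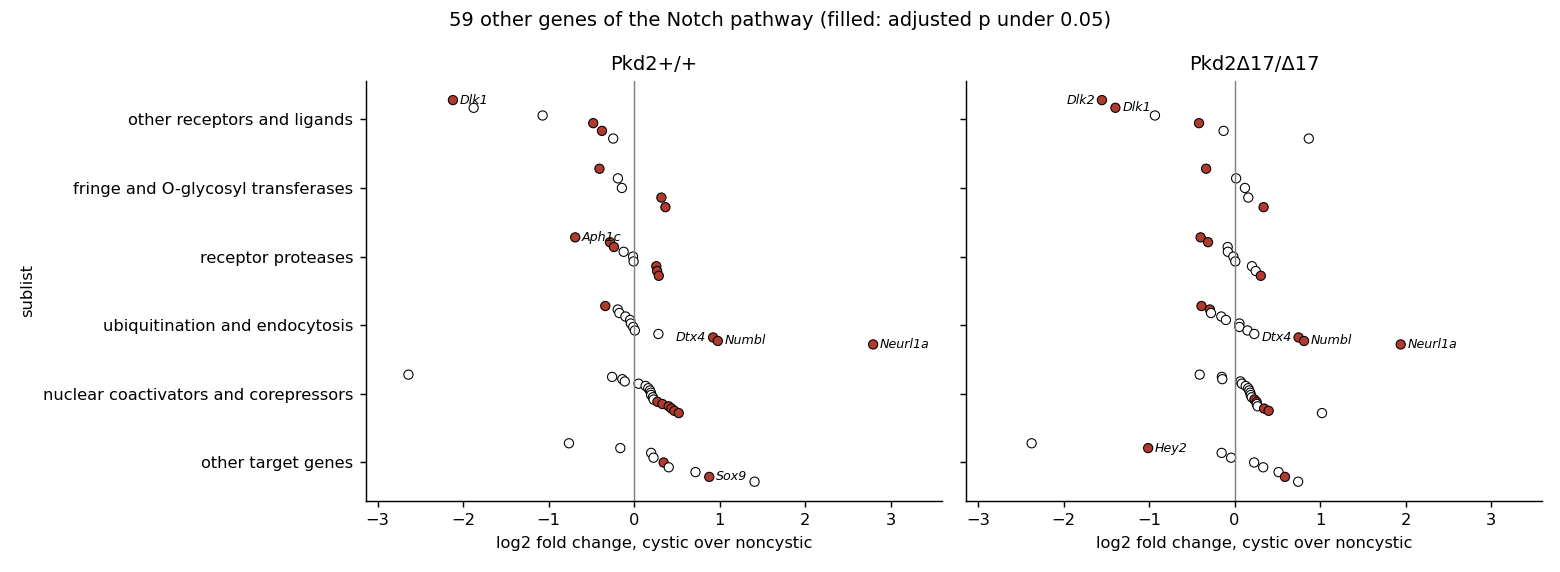
Log2 fold change of cystic over noncystic kidneys (horizontal axes) for 59 other Notch pathway genes in 6 sublists (vertical axis), with *Pkd2*+/+ on the left and *Pkd2*Δ17/Δ17 on the right; filled points passed the adjusted p threshold of 0.05 and those beyond 0.6 either way are named. *Neurl1a* lies farthest to the right in both panels.

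Markers of several cell types moved with the same comparison. The 6 mural cell markers, of a cell type known for *Notch3* and *Heyl*, summed to 439 to 531 CPM in noncystic and 636 to 961 CPM in cystic *Pkd2*+/+ mice, and to 400 to 471 CPM and 688 to 721 CPM with *Pkd2*Δ17/Δ17. Only 2 of the 6 rose, the same 2 in both genotypes. They were *Acta2* (log2 fold change 2.05 and 1.94) and *Tagln* (1.86 and 1.24), which myofibroblasts also express. Most of the rise of the sum was *Acta2*, with noncystic and cystic means of 108 and 448 CPM, and 88.1 and 337 CPM with *Pkd2*Δ17/Δ17. *Tagln* had few reads, 7 to 13 in a noncystic mouse and 19 to 50 in a cystic one. The pericyte markers *Pdgfrb* (-0.01 and 0.09) and *Rgs5* (0.01 and 0.25) did not pass the test, nor did *Myh11* and *Cspg4*. Mean *Myh11* was lower in cystic kidneys, with 42.9 CPM in noncystic and 37.7 in cystic mice, and 45.5 and 33.4 with *Pkd2*Δ17/Δ17. Mean *Cspg4* was higher, with 36.1 and 41.7 CPM, and 34.2 and 41.0 with *Pkd2*Δ17/Δ17. None of the 6 was at 0 in any mouse, and the part of mural cells in the rise of *Notch3* and *Heyl* was not tested.

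The 6 endothelial markers summed to 601 to 683 CPM in noncystic and 429 to 466 CPM in cystic *Pkd2*+/+ mice, and 4 of the 6 fell, beside *Notch4* and *Dll4*. With *Pkd2*Δ17/Δ17 4 of the 6 fell as well, beside *Notch4* but not *Dll4*. Changes were smaller for *Cdh5*, with means of 92.6 and 90.3 CPM, and 92.4 and 94.5 with *Pkd2*Δ17/Δ17. For *Pecam1* the means were 147 and 122 CPM, and 139 and 130. Of the other lists of 6 markers in *Pkd2*+/+ kidneys, 6 of macrophages rose and 0 fell, 6 of proximal tubule fell and 0 rose. In the list of collecting duct principal cells 3 rose and 0 fell. For fibroblasts 3 rose and 2 fell, for podocytes 1 rose and 5 fell, for thick ascending limb 1 rose and 4 fell, for intercalated cells 1 rose and 3 fell, and for lymphocytes 1 rose and 0 fell. Between the cystic groups, beside *Heyl* and *Neurl1a*, 4 macrophage markers were lower and 2 proximal tubule, 2 thick ascending limb and 1 endothelial marker were higher with *Pkd2*Δ17/Δ17. The part of these cell types in the values of the 10 genes was not tested.

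**Figure D5:**
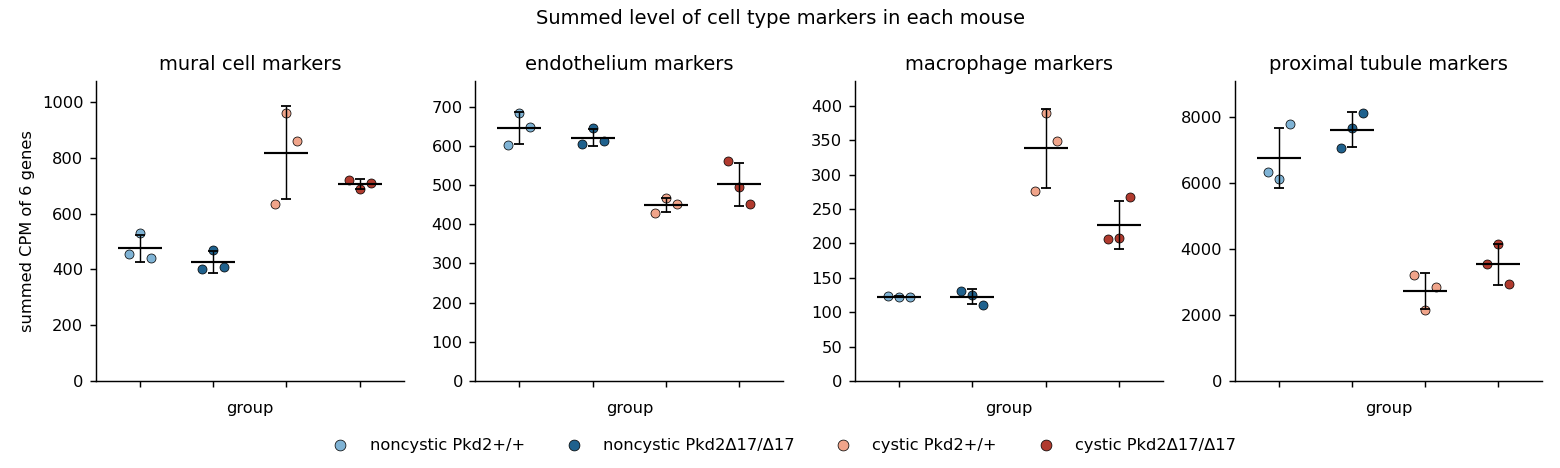
Summed level (vertical axes, TMM-scaled CPM, from 0) of 6 markers each of mural cells, endothelium, macrophages and proximal tubule in each of the 12 mice by group (horizontal axes); points are mice, the wide line is the mean and the bar the SD (n = 3). Mural and macrophage sums are higher, and endothelial and proximal tubule sums lower, in every cystic mouse than in every noncystic mouse of the same *Pkd2* genotype. Most of the rise of the mural sum is *Acta2*.

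For the receptor, the ligand and the target with the highest mean level per kilobase, the genes with the most similar pattern over the 12 mice were looked up among 13692 genes, by the root mean square difference of log2CPM after centring each gene. Nearest to *Notch3* were *Iqgap1* (0.11), *Bicc1* (0.11) and *Dnmbp* (0.11), where the median gene differed by 0.54. Nearest to *Jag1* were *Tulp4* (0.05), *Brms1l* (0.06) and *Zbed4* (0.07), with a median of 0.26, and nearest to *Hes1* were *Myct1* (0.07), *Ranbp3* (0.08) and *Phf5a* (0.08), with a median of 0.27. Because these genes were picked for their likeness over the same 12 mice, similar fold changes follow from the choice. With cystic disease in the 2 *Pkd2* genotypes, the log2 fold changes were 1.15 and 0.89 for *Iqgap1* and 1.01 and 0.93 for *Bicc1*. They were 1.02 and 0.86 for *Dnmbp*, beside 1.03 and 1.01 for *Notch3*.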

How the data were processed

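Gene counts of 12 kidney libraries (4 groups of 3 separate mice) were used, each column assigned to a mouse by its label. Per the submitters' processing notes, Trim Galore 0.6.3, STAR 2.5.3a and GRCm38 were used, and the authors deposited raw counts per gene, not normalized, and the strand counted is not given in the sources used here. The 343 rows with an identifier but no name held 0.0225% of the counts and were kept. Coordinates and exon lengths are from GENCODE M21 (GRCm38), which held 99.9% of the identifiers.

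Genes whose mean log2CPM reached -3 were tested in R 4.3.3 with edgeR 4.0.16 (quasi-likelihood test, TMM factors, 4 group means over all 12 mice, 8 residual degrees of freedom, Benjamini-Hochberg over 24642 genes, threshold 0.05). SE is the size of the log2 fold change over the square root of F. Depth gave the members 81 to 2085 reads per mouse. Named were all members, the 3 genes of each sublist with the smallest p in cystic against noncystic *Pkd2*+/+ kidneys, and those called between the cystic groups. The 3 genes most like the highest receptor, ligand and target were also named, with *Pkd1*, *Pkd2* and *Cdh16* as checks. The mural cell markers *Pdgfrb*, *Rgs5*, *Acta2*, *Tagln*, *Myh11* and *Cspg4* were named after their values were seen. The values of 1 gene that this rule names are not reported here. Members and lists were chosen with earlier results of these data known. Alternatives were limma-trend, the test named by the study (limma 3.58.1, library totals, prior count 3), DESeq2 1.42.0, other scalings and filters, fits on the compared groups alone, *Xist* added as covariate, an adjusted p under 0.01, and leaving out each mouse. The tests were tested on simulated data.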

Additional observations from a re-analysis of the deposited data

How the results depend on the processing

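With cystic disease, the members called were 6 with *Pkd2*+/+ (5 to 7 under the alternatives, 4 to 6 without 1 mouse) and 7 with *Pkd2*Δ17/Δ17 (7 or 8, 5 to 6 without 1 mouse, 4 at an adjusted p under 0.01). Between the cystic groups, 0 were called, and 1 with DESeq2, without a filter, with at least 10 counts in every mouse and with *Xist*, and 0 to 1 without 1 mouse. In the share results, leaving out 1 mouse gave 1.30 to 1.92 percentage points for *Notch1* and 2.11 to 3.97 for *Dll1*. Library totals moved the median of all genes from 0.02 to 0.18 (*Pkd2*+/+) and from -0.00320 to 0.15 (*Pkd2*Δ17/Δ17), and higher calls from 4170 against 3495 lower to 6251 against 2468, and from 3164 against 2515 to 5334 against 1657. Limma-trend gave 6309 against 2520 and 5436 against 1698. With them *Aph1a* (0.0714 and 0.0713) and *Dll4* (0.0227 and 0.0238) turned upward with *Pkd2*Δ17/Δ17; the cause was not tested.

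The other values that changed sign passed the test under none of the alternatives run. Without 1 mouse the log2 fold changes of *Hes1* with cystic disease ran from -0.035 to 0.11, those between cystic groups of *Dll1* from -0.32 to 0.061, *Hey1* from -0.039 to 0.087, *Notch2* from -0.011 to 0.11 and *Notch3* from -0.077 to 0.046, those between noncystic groups of *Dll1* from -0.045 to 0.24, *Jag2* from -0.065 to 0.074 and *Notch3* from -0.10 to 0.092, and the interaction of *Jag1* from -0.049 to 0.054 and of *Notch3* from -0.10 to 0.091. *Jag2* had -0.034 with *Xist* and *Notch3* -0.0022 with DESeq2's size factors or test between noncystic groups, and the interaction of *Jag1* was 0.00048 with these size factors, 0.00041 with DESeq2, 1.07e-05 with filterByExpr and 0.022 with *Xist*.

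Over all genes, 549 were called between the cystic groups (293 higher, 256 lower), 815 and 824 without a filter, 564 and 564 with DESeq2, 99 and 68 with the compared groups only, and 118 to 861 without 1 mouse. The interaction gave 2 higher and 1 lower, 7 and 1 with library totals, 7 and 2 with limma-trend, 11 and 1 with at least 10 counts, 13 and 2 with *Xist*, 89 and 45 with DESeq2, 294 and 272 without a filter, and 0 to 61 in all without 1 mouse. Between noncystic groups it was 0 and 1, and 72 and 52 without a filter. At an adjusted p under 0.01, 2116 rose and 1645 fell with cystic disease in *Pkd2*Δ17/Δ17 kidneys. No paired analysis was possible because the groups share no mouse numbers.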
